A study of Homo sapiens with 8 samples.

Results

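The mitochondrial ribosomal protein genes are the 78 genes whose symbols are MRPL or MRPS followed by a number, with or without a closing letter from A to C, in the authors' deposited gene tables. They comprise 49 MRPL genes, named for the large subunit, and 29 MRPS genes, named for the small subunit. All 78 were among the 16449 genes that passed the filter on low counts, so no member was lost to it. RNA came from HT29, an established human line from a colorectal adenocarcinoma, with 8 libraries in all and 2 for each condition. The 4 conditions were ICG-001 at 10 µM, CWP232228 at 1.5 µM, YB-0158 at 0.3 µM and the DMSO vehicle at 0.1%, and the series title describes the compounds as reverse-turn peptidomimetics. Cells were treated for 48 h, except that replicate 2 of ICG-001 and of CWP232228 are labelled 49 h. The labels do not say whether replicates were separate cultures, so the spread of libraries within groups may be technical only. A p-value reflects that spread as shared over the 4 groups in 1 model, not that of the compared groups alone. With 1 dose per compound, the doses differ between compounds in every comparison of them.

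The mitochondrial ribosome makes the few proteins encoded by mitochondrial DNA, all of them membrane subunits of the respiratory chain and ATP synthase. Its ribosomal RNAs come from mitochondrial DNA, whereas its proteins are all encoded in the nucleus, made on cytosolic ribosomes and imported. The small subunit binds the mRNA and decodes it, and the large subunit joins the amino acids and passes the chain through a tunnel to the inner membrane. Many of the proteins have a relative in the bacterial ribosome, and others are found only in mitochondria. Some symbols mislead: MRPS18A and MRPS30 sit in the large subunit in ribosome structures, and the product of MRPS36 is known as a component of the 2-oxoglutarate dehydrogenase complex and not of the ribosome.

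Total estimated reads ran between 29071547 and 58489118 per library. All 10 markers listed for colon epithelium were at or above 1 CPM (counts scaled to library size) in at least 1 library, with a summed level between 11458 and 16618 CPM. Among 6 fibroblast markers, 2 reached 1 CPM and the summed level was between 4.38 and 6.06 CPM, and among 5 endothelial markers only PECAM1 did. Of 6 leukocyte markers, PTPRC was at most 0.03 CPM and CD3E was at 0 in every library, while LYZ, at 2498 to 2793 CPM, made up nearly all of the summed level of 2507 to 2803 CPM. The DMSO libraries differed from each other more than the replicates of any compound did: the log2 difference of replicate 1 minus replicate 2 had an SD over genes of 0.17 for ICG-001, 0.16 for CWP232228, 0.16 for YB-0158 and 0.33 for DMSO. Over the 78 members the median difference of replicate 1 minus replicate 2 was -0.03, 0.01 and -0.02 in the ICG-001, CWP232228 and YB-0158 groups, against -0.19 in the DMSO group. The spread shared by the 4 groups does not set the wider spread of DMSO apart. Printed SEs and p-values against DMSO therefore do not carry it in full.

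Summed over all members, transcripts of the mitochondrial ribosome were less abundant after each compound. The sum was 4880 and 4797 TPM (a level scaled per transcript length and to library size) in the ICG-001 libraries, 5059 and 5046 TPM in the CWP232228 libraries, 4817 and 4955 TPM in the YB-0158 libraries and 5973 and 6059 TPM in the DMSO libraries. Every treated library lay below both DMSO libraries, and the mean differed from that of DMSO by -19.6%, -16.01% and -18.8% for ICG-001, CWP232228 and YB-0158. The deposited FPKM gave larger differences of -24.7%, -22.3% and -23.6%, with more spread between the DMSO libraries, at 6503 and 7497. As a share of all reads, the members took 0.384% and 0.386% in the ICG-001 libraries, 0.408% and 0.408% in the CWP232228 libraries, 0.390% and 0.398% in the YB-0158 libraries, and 0.488% and 0.524% in the DMSO libraries. In bulk RNA, fewer cells of a kind and less RNA per cell cannot be told apart.

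The balance of the subunits varied little. The summed TPM of MRPL genes was 2.19 and 2.16 times that of MRPS genes in the ICG-001 libraries, 2.05 and 2.19 times in the CWP232228 libraries, 2.22 and 2.14 times in the YB-0158 libraries and 2.16 and 2.28 times in the DMSO libraries, so the ranges overlapped. Although the proteins stand in near-equal amounts in the ribosome, their transcripts did not: the most abundant member exceeded the least abundant by 22.2 to 29.3 times within a library. MRPL13 was the highest in TPM, at 301 and 323 in the ICG-001 libraries, 331 and 335 in the CWP232228 libraries, 259.6 and 299 in the YB-0158 libraries and 280.1 and 298 in the DMSO libraries, so that only the YB-0158 libraries overlapped those of DMSO. MRPL51, MRPL20, MRPL33 and MRPS34 followed by mean TPM. MRPL50 was the lowest, between 11.04 and 12.6 TPM over the 8 libraries, with MRPL39 (15.5 to 19.9 TPM) and MRPS14 (20.1 to 27.8 TPM) next above it.

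Promoters were read for 69 of the 78 members that have an entry in a RefSeq table of the GRCh38.p14 build, from 250 bases before to 50 bases after each start. The motif CCGGAAG (reverse complement CTTCCGG), recognised by ETS factors such as GABPA, lay in 29 of the 69 windows (42.0%), against 2139 of 11361 windows of tested genes (18.8%). The YY1 motif AAGATGGCG or its reverse complement lay in 13 member windows (18.8%) against 3.81% of tested genes, and the NRF1 motif GCATGCGC or its reverse complement lay in 6 (8.70%) against 5.39%. The TATA box TATAAA was found on either strand in 2 member windows (2.90%) against 6.01% of tested genes, and CCAAT on either strand in 20 (28.99%) against 36.6%. The closing AAG of the ETS motif is also the opening of the YY1 motif, so a single stretch can hold both. A match is a description of the sequence only, and the windows of all tested genes include those of the members. The 150 bases before the start are printed 5′ to 3′ on the gene's strand for MRPS10, the member that rose, and for the 3 named members with the largest falls under ICG-001 that hold an ETS, YY1 or NRF1 motif there. Capitals mark the ETS motif on either strand, and the windows are chr20:3045902-3046051 for MRPS26, chr6:43687792-43687941 for MRPS18A, chr19:3762532-3762681 for MRPL54 and chr6:42217862-42218011 for MRPS10.
MRPS26: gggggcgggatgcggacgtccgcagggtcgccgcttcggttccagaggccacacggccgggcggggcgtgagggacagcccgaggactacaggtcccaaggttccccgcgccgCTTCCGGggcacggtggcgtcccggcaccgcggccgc
MRPS18A: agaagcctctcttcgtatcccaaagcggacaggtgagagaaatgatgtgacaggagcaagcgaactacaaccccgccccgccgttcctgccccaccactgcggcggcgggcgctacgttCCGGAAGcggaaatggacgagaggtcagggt
MRPL54: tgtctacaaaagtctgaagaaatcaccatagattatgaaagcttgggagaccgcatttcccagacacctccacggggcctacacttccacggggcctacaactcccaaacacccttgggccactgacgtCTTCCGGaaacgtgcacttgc
MRPS10: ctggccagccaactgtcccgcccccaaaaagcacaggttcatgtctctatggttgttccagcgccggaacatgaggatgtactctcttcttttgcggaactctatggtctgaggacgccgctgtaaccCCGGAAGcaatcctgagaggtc
The 3 promoters of members that fell were chosen for holding a motif, so its presence in them says nothing about members that fell in general.

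After ICG-001, 54 of the 78 genes fell and 1 rose, at an adjusted p under 0.05 over all genes tested (edgeR quasi-likelihood test, Benjamini-Hochberg). The same test called 24% of all 16449 genes lower and 24.8% higher. The members' median log2 fold change was -0.43, against 0.03 over all genes, and 69 of 78 members had a value below 0, against 7918 of 16449 genes. Of the MRPL genes, 35 of 49 fell and 0 rose (median -0.44), and 0 were higher at an unadjusted p under 0.05, while DESeq2 called 1 of all 78 members higher. Of the MRPS genes, 19 of 29 fell and 1 rose (median -0.42). Without replicate 1 of ICG-001 the median over all members was -0.43, and without replicate 2 it was -0.45.

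After CWP232228, 48 of the 78 fell and 1 rose, where 21.2% of all genes were called lower and 21.6% higher. The median was -0.35 on the log2 scale, and 67 members had a value below 0. Of the MRPL genes 34 of 49 fell (median -0.37), and of the MRPS genes 14 of 29 fell and 1 rose (median -0.27). Without CWP232228 replicate 1 the members' median was -0.33, and without replicate 2 it was -0.37. After YB-0158, 45 fell and 1 rose, where 22.1% of all genes were called lower and 21.7% higher. The median was -0.39, with 27 of 49 MRPL genes lower (median -0.36) and 18 of 29 MRPS genes lower and 1 higher (median -0.42). The 3 comparisons share the same DMSO libraries and are therefore not independent of each other. Without DMSO replicate 1 the members' medians were -0.53, -0.43 and -0.50 for ICG-001, CWP232228 and YB-0158. Without DMSO replicate 2 these medians were -0.34, -0.25 and -0.30.

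**Figure D1:**
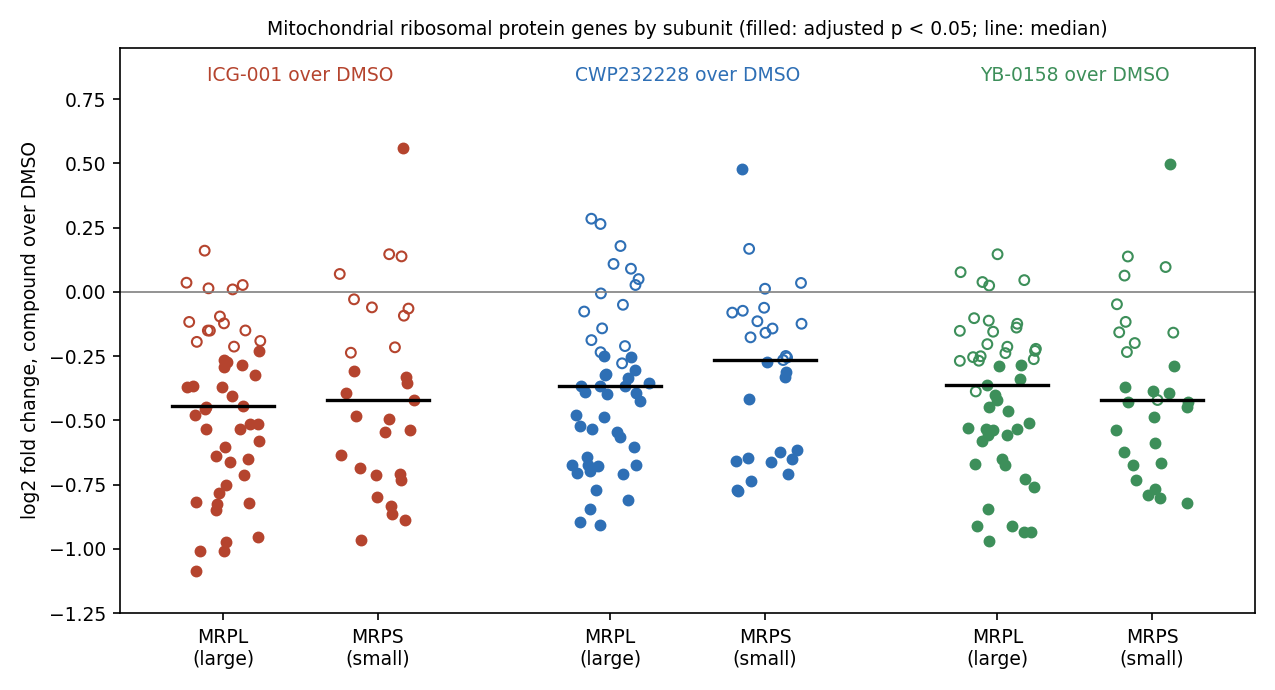
Log2 fold change of each of the 49 MRPL and 29 MRPS genes (points) for each compound over DMSO, with filled points at an adjusted p under 0.05 and a line at the median. Medians lie between -0.27 and -0.44, and MRPS10 is the filled point above 0 in each MRPS column.

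Proteins of the large subunit's stalk, the arm that contacts translation factors, were all lower: MRPL10, MRPL11 and MRPL12 fell after each compound. MRPL11 (chr11:66435075-66466738, GRCh38), the relative of bacterial L11 at the stalk base, had 42.1 and 39.1 CPM in ICG-001 libraries, 53.6 and 51.8 CPM in CWP232228 libraries, 44.999 and 46.7 CPM in YB-0158 libraries and 79.6 and 92.6 CPM in DMSO libraries. All 6 treated libraries lay below both DMSO libraries, lowest after ICG-001. The log2 fold change of MRPL11 was -1.08 ± 0.09 (SE; adjusted p = 7.0e-05) for ICG-001, -0.71 ± 0.09 (adjusted p = 0.0013) for CWP232228 and -0.91 ± 0.09 (adjusted p = 1.9e-04) for YB-0158. MRPL12 (chr17:81703357-81707526), the L7/L12 relative whose free form is known to bind the mitochondrial RNA polymerase, had 72.3 and 65.6 CPM in ICG-001 libraries, 76.0 and 72.7 CPM in CWP232228 libraries, 70.3 and 69.4 CPM in YB-0158 libraries and 122 and 146 CPM in DMSO libraries. Its treated libraries spanned a narrow band well under DMSO, with log2 fold changes of -0.95 ± 0.10, -0.84 ± 0.10 and -0.93 ± 0.10 (adjusted p = 1.7e-04, 9.6e-04 and 2.2e-04). MRPL10, which anchors L12 copies to the ribosome, fell less, with log2 fold changes of -0.51, -0.42 and -0.45 for ICG-001, CWP232228 and YB-0158 (SE 0.08 each; adjusted p = 9.4e-04, 0.004 and 0.0021).

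Large subunit proteins with a bacterial relative included genes with large falls and genes that did not pass the test. MRPL2, a relative of bacterial L2 beside the peptidyl transferase centre, had 24.2 and 23.4 CPM in ICG-001 libraries, 28.3 and 26.6 CPM in CWP232228 libraries, 24.9 and 24.04 CPM in YB-0158 libraries and 44.0 and 49.5 CPM in DMSO libraries. MRPL2 fell with log2 fold changes of -0.97, -0.77 and -0.93 (SE 0.09 each; adjusted p = 1.1e-04, 0.001 and 1.6e-04). MRPL16, relative of bacterial L16, had 43.4 and 46.8 CPM in ICG-001 libraries, 58.7 and 57.9 CPM in CWP232228 libraries, 43.0 and 43.4 CPM in YB-0158 libraries and 75.05 and 87.5 CPM in DMSO libraries. The CWP232228 libraries stood between the other treated libraries and DMSO, with no overlap on either side, and the log2 fold changes were -0.85 ± 0.09, -0.48 ± 0.09 and -0.91 ± 0.09 (adjusted p = 2.1e-04, 0.0047 and 1.8e-04). MRPL28 had 57.2 and 54.4 CPM in ICG-001 libraries, 64.5 and 56.0 CPM in CWP232228 libraries, 62.4 and 62.4 CPM in YB-0158 libraries and 101 and 123 CPM in DMSO libraries, and fell with log2 fold changes of -1.01, -0.90 and -0.85 (SE 0.11 each; adjusted p = 2.2e-04, 0.0011 and 5.5e-04). By contrast MRPL3, relative of a core bacterial protein also placed near the catalytic centre, had 146 and 159.6 CPM in ICG-001 libraries, 161 and 148 CPM in CWP232228 libraries, 139 and 163 CPM in YB-0158 libraries and 139 and 135 CPM in DMSO libraries. Its log2 fold changes were 0.16, 0.18 and 0.15 (SE 0.09 each) and did not pass the test (adjusted p = 0.19, 0.15 and 0.23). MRPL13, the most abundant member, had log2 fold changes of 0.01, 0.09 and -0.11 with adjusted p of 0.91, 0.44 and 0.33.

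Among large subunit proteins found only in mitochondria, MRPL55 (chr1:228106679-228109312) had the lowest log2 fold change for each compound without a GC term, whereas with GC content and length offsets MRPL50 did, at -0.73, -0.73 and -0.53. The level of MRPL55 was 17.8 and 16.5 CPM in ICG-001 libraries, 19.7 and 17.2 CPM in CWP232228 libraries, 17.4 and 17.9 CPM in YB-0158 libraries and 32.2 and 36.9 CPM in DMSO libraries. No treated library came near the lower DMSO value, and MRPL55 fell with log2 fold changes of -1.01, -0.91 and -0.97 (SE 0.11 each; adjusted p = 2.1e-04, 0.0011 and 2.9e-04). MRPL54 fell with log2 fold changes of -0.82, -0.81 and -0.65 (SE 0.11 each; adjusted p = 5.3e-04, 0.0015 and 0.0019), and MRPL37 with log2 fold changes of -0.75, -0.61 and -0.67 (SE 0.09 each; adjusted p = 3.5e-04, 0.0021 and 6.8e-04). At the tunnel exit, where the new chain leaves, 6, 5 and 5 of 8 members fell after ICG-001, CWP232228 and YB-0158, with medians of -0.36, -0.28 and -0.29. Of all 78 members 54, 48 and 45 fell, a similar share, and of all genes 24%, 21.2% and 22.1% were called lower. MRPL45, which ties the ribosome to the inner membrane, had log2 fold changes of -0.32, -0.25 and -0.21 (adjusted p = 0.015, 0.045 and 0.076), so the last did not pass. MRPL44, whose fold is related to RNase III, had -0.41, -0.19 and -0.29 (adjusted p = 0.0044, 0.10 and 0.023). The YB-0158 call of MRPL44 was lost without either YB-0158 library (adjusted p = 0.14 and 0.075). MRPL58, a peptidyl-tRNA hydrolase built into the large subunit, had log2 fold changes of -0.44 ± 0.11, -0.36 ± 0.12 and -0.24 ± 0.11 (adjusted p = 0.013, 0.034 and 0.12). Leaving out DMSO replicate 2 changed the ICG-001 and CWP232228 values of MRPL58 to -0.28 and -0.20, and the CWP232228 call was lost there (adjusted p = 0.11). Both calls were also lost without either library of the compound. The assignment of genes to stalk and tunnel exit was written from textbook knowledge after values had been seen.

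**Figure D2:**
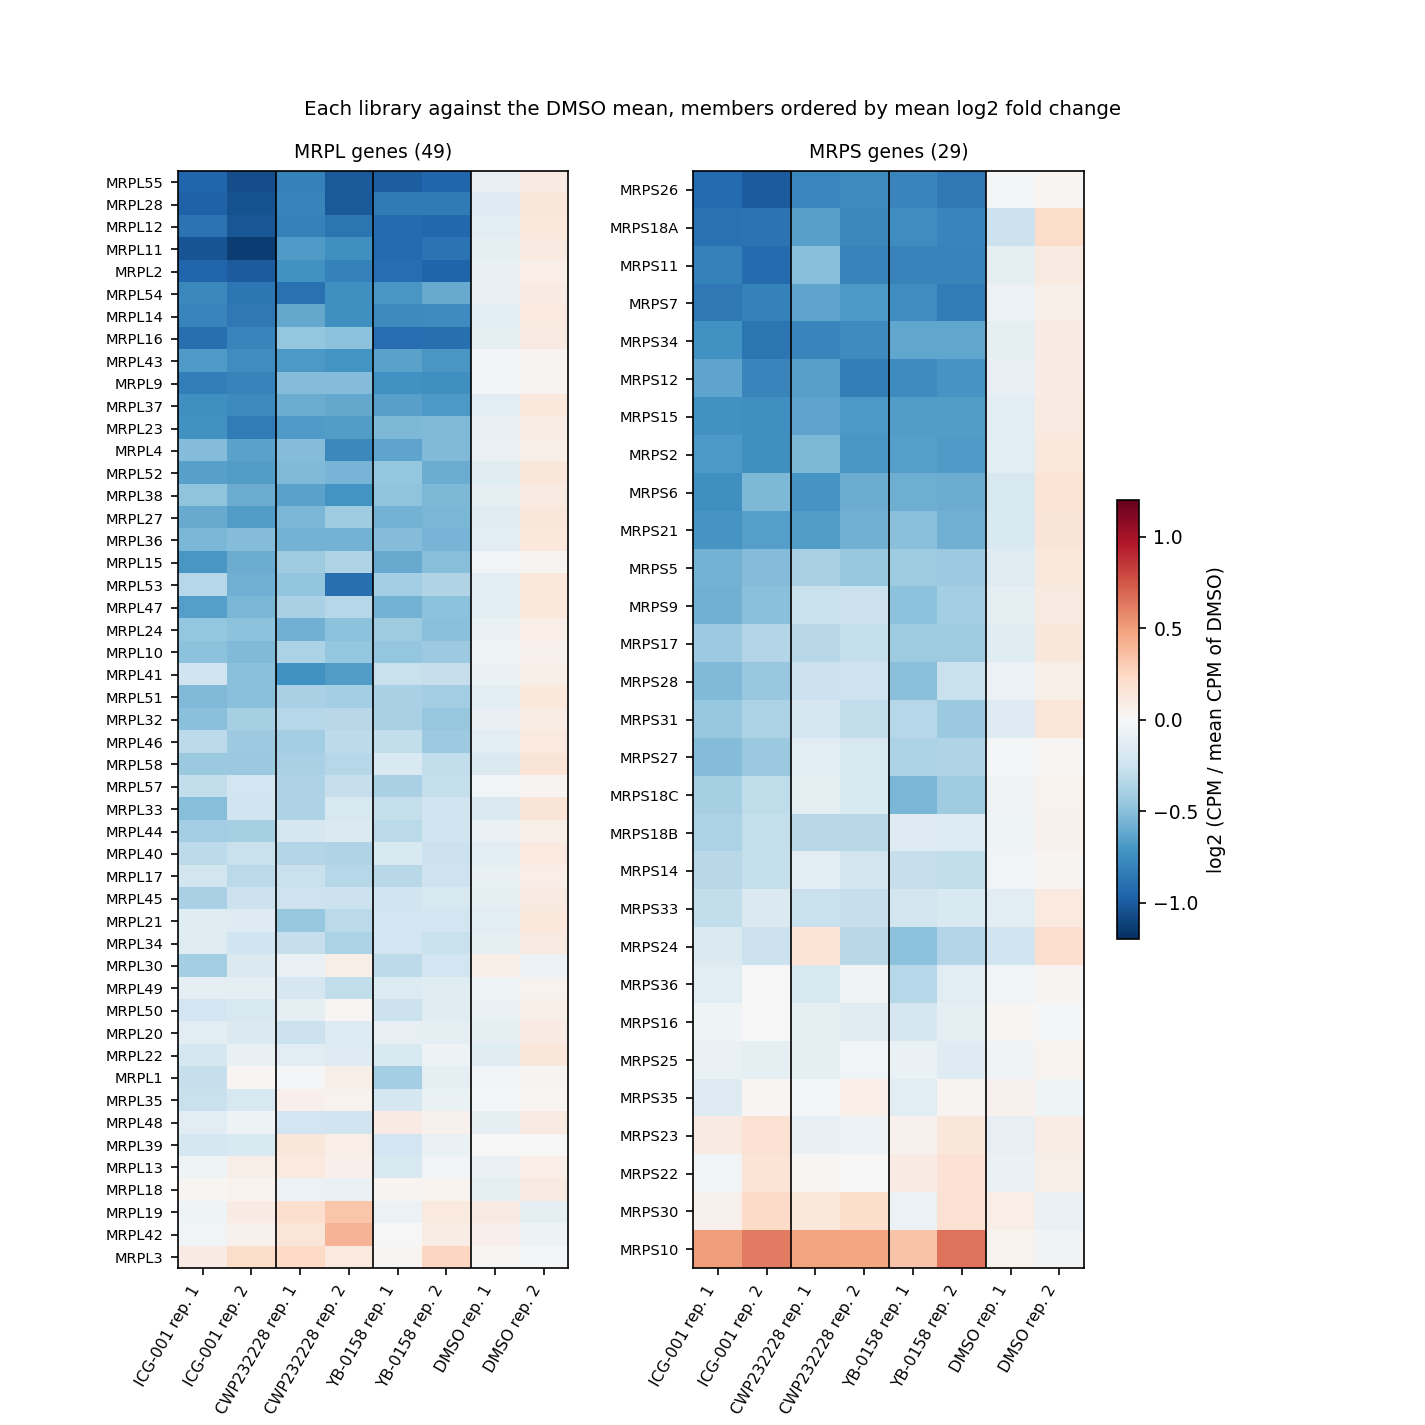
Log2 ratio of each library's CPM to the mean CPM of the DMSO libraries for all 78 genes (rows, ordered by mean log2 fold change; columns are the 8 libraries, ICG-001, CWP232228, YB-0158 and then DMSO). Most rows are below 0 in all 6 treated libraries, MRPS10 and MRPL3 are above the DMSO mean in all 6, and DMSO replicate 2 is above DMSO replicate 1 in most rows.

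Among genes with MRPS symbols, the largest falls after ICG-001 were in MRPS26, MRPS18A, MRPS11, MRPS7 and MRPS34, of which MRPS18A belongs to the large subunit in structures. MRPS26 (chr20:3045945-3048254), a protein found only in mitochondria, had 36.5 and 34.9 CPM in ICG-001 libraries, 40.5 and 41.2 CPM in CWP232228 libraries, 40.3 and 38.5 CPM in YB-0158 libraries and 68.5 and 70.8 CPM in DMSO libraries. Replicates of MRPS26 lay close together in each group, DMSO included, and the log2 fold changes were -0.96 ± 0.08, -0.77 ± 0.08 and -0.82 ± 0.08 (adjusted p = 5.0e-05, 6.3e-04 and 1.2e-04). MRPS34, a mitochondrial protein known to be needed for the stability of the small subunit, had 86.4 and 78.1 CPM in ICG-001 libraries, 82.6 and 84.8 CPM in CWP232228 libraries, 92.8 and 93.1 CPM in YB-0158 libraries and 133 and 153 CPM in DMSO libraries. It fell with log2 fold changes of -0.80, -0.77 and -0.62 (SE 0.09 each; adjusted p = 2.3e-04, 9.1e-04 and 8.3e-04). MRPS12, relative of the bacterial decoding-centre protein S12, had 55.9 and 50.03 CPM in ICG-001 libraries, 55.2 and 48.6 CPM in CWP232228 libraries, 51.4 and 52.9 CPM in YB-0158 libraries and 80.7 and 92.4 CPM in DMSO libraries. Its treated groups overlapped one another, and each fell against DMSO, with log2 fold changes of -0.71, -0.74 and -0.73 (SE 0.10 each; adjusted p = 8.0e-04, 0.0016 and 7.9e-04). MRPS7, relative of bacterial S7, fell with log2 fold changes of -0.83, -0.66 and -0.79 (SE 0.08 each; adjusted p = 1.4e-04, 0.0012 and 2.1e-04), and MRPS11, relative of bacterial S11, with log2 fold changes of -0.86, -0.65 and -0.80 (SE 0.12 each; adjusted p = 6.2e-04, 0.0042 and 0.001). MRPS7 and MRPS11 are named here after their values were seen.

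The S18 relatives, of which humans have 3, did not move alike. MRPS18A, the paralog found in the large subunit, had 33.8 and 33.9 CPM in ICG-001 libraries, 39.8 and 36.7 CPM in CWP232228 libraries, 37.4 and 36.2 CPM in YB-0158 libraries and 52.2 and 73.0 CPM in DMSO libraries. The DMSO libraries of MRPS18A were far apart, and its log2 fold changes of -0.89, -0.71 and -0.77 carried the SE of 0.14 (adjusted p = 0.0014, 0.006 and 0.0032). Without DMSO replicate 2 the CWP232228 value was -0.47, and without CWP232228 replicate 2 that call was lost (adjusted p = 0.06). MRPS18B had 54.1 and 58.0 CPM in ICG-001 libraries, 56.0 and 56.1 CPM in CWP232228 libraries, 63.4 and 62.9 CPM in YB-0158 libraries and 68.1 and 73.0 CPM in DMSO libraries. Its log2 fold changes were -0.33, -0.33 and -0.16 (SE 0.08 each; adjusted p = 0.007, 0.0098 and 0.12), and the ICG-001 call was lost without ICG-001 replicate 1 and the CWP232228 call without either CWP232228 library. MRPS18C had 14.4 and 15.3 CPM in ICG-001 libraries, 17.6 and 16.7 CPM in CWP232228 libraries, 13.0 and 14.1 CPM in YB-0158 libraries and 18.4 and 19.6 CPM in DMSO libraries, with log2 fold changes of -0.35, -0.14 and -0.49 (SE 0.10 each; adjusted p = 0.016, 0.26 and 0.0042). The direction of MRPS18C depends on transcript length: with each library's effective gene length as an offset the ICG-001 and YB-0158 values became 0.38 and 0.32, neither past the test (adjusted p = 0.275 and 0.364). Annotated exons of ABRAXAS1, on the opposite strand, cover 40.2% of the exon bases of MRPS18C, and this kit does not mark strand, so the gene is uncertain.

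MRPS27, an RNA-binding protein of the pentatricopeptide repeat family, had 93.02 and 97.7 CPM in ICG-001 libraries, 122 and 117 CPM in CWP232228 libraries, 102 and 104 CPM in YB-0158 libraries and 132 and 135 CPM in DMSO libraries. The groups did not overlap, and the log2 fold changes were -0.48, -0.16 and -0.37 (SE 0.07 each; adjusted p = 7.0e-04, 0.087 and 0.003). With the effective length offset, however, the ICG-001 and YB-0158 values were -0.12 and -0.02, and neither passed (adjusted p = 0.58 and 0.94). MRPS2, relative of bacterial S2, had 66.3 and 64.2 CPM in ICG-001 libraries, 73.8 and 66.0 CPM in CWP232228 libraries, 67.9 and 66.9 CPM in YB-0158 libraries and 97.3 and 117 CPM in DMSO libraries. It fell with log2 fold changes of -0.71, -0.61 and -0.67 (SE 0.10 each; adjusted p = 7.0e-04, 0.0028 and 0.0011), and by smaller amounts that did not pass with the effective length offset (-0.44, -0.25 and -0.44). MRPS30, despite its symbol a large subunit protein, had log2 fold changes of 0.14, 0.17 and 0.06 (adjusted p = 0.33, 0.25 and 0.67). MRPS36, the member that is not a ribosomal protein, had 19.5 and 21.3 CPM in ICG-001 libraries, 18.6 and 20.7 CPM in CWP232228 libraries, 16.8 and 19.4 CPM in YB-0158 libraries and 20.8 and 21.7 CPM in DMSO libraries, and did not pass in any comparison (adjusted p = 0.67, 0.43 and 0.11).

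MRPS10 (chr6:42206801-42217865), relative of bacterial S10 in the head of the small subunit, was the member that rose. Its level was 58.6 and 63.6 CPM in ICG-001 libraries, 57.7 and 57.5 CPM in CWP232228 libraries, 52.3 and 64.8 CPM in YB-0158 libraries and 42.6 and 40.1 CPM in DMSO libraries. All 6 treated libraries stood above both DMSO libraries, and the log2 fold changes were 0.56, 0.48 and 0.50 (SE 0.11 each; adjusted p = 0.0033, 0.0098 and 0.0065). The authors' deposited table gives 0.48, 0.36 and 0.44 for the same gene, each under 0.05 after adjustment. The call was lost without either CWP232228 library (adjusted p = 0.051 and 0.063) and without YB-0158 replicate 2, where the value was 0.34 (adjusted p = 0.055). Exon GC content of MRPS10 is 41.6%, and with an offset for GC content and length the values were 0.20, 0.04 and 0.22, none past the test (adjusted p = 0.073, 0.73 and 0.06). The number of members called higher also varied with the libraries used: it was 2 for ICG-001 without DMSO replicate 2, and 3 for CWP232228 without DMSO replicate 1.

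**Figure D3:**
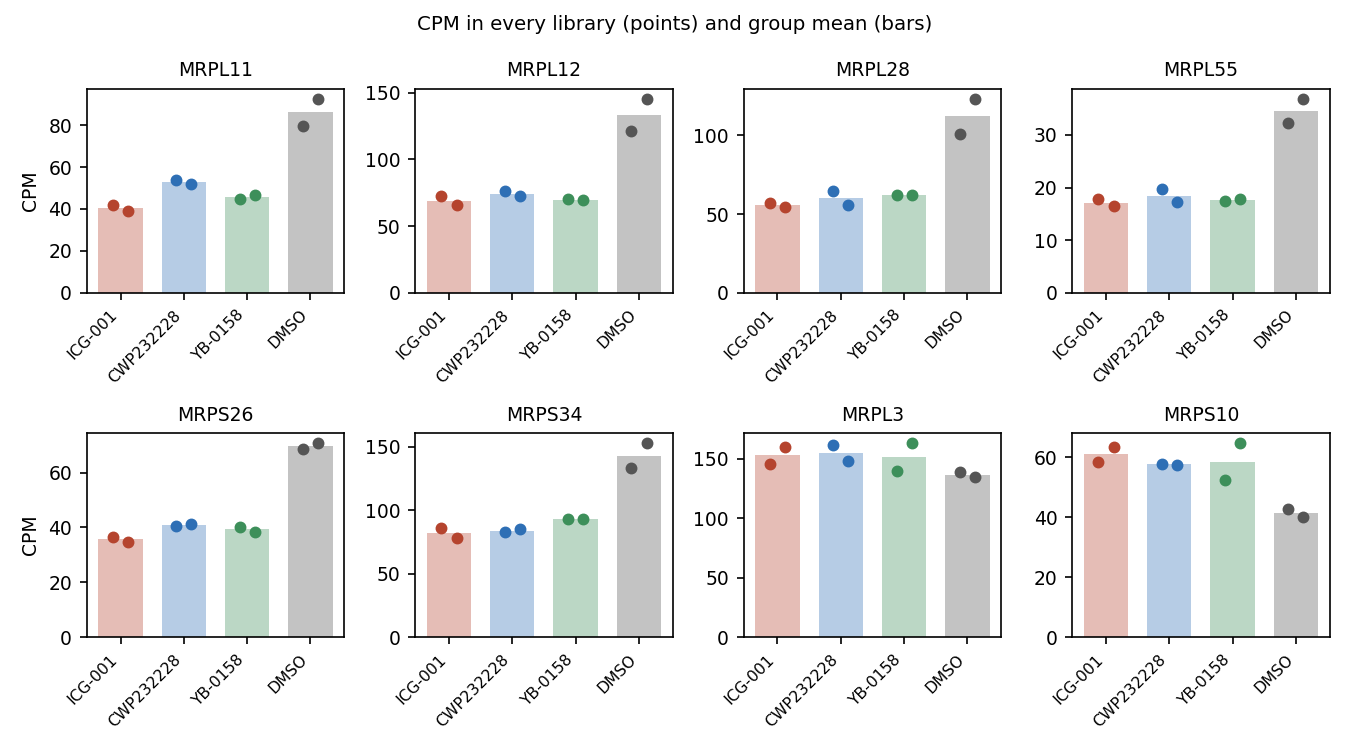
CPM of 8 members in every library (points) with the group mean (bars), for ICG-001, CWP232228, YB-0158 and DMSO from left to right. The 6 genes MRPL11, MRPL12, MRPL28, MRPL55, MRPS26 and MRPS34 are lower in every treated library than in DMSO, MRPL3 stays close to DMSO and MRPS10 is higher in every treated library.

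GC content moved with the size of the fold change, among members as among all genes. Across the 78 members Spearman's rho between the log2 fold change and exon GC content was -0.57, -0.77 and -0.57 for ICG-001, CWP232228 and YB-0158, against -0.42, -0.57 and -0.38 across all 16449 genes. These are values over genes of the same libraries, which are not independent replicates. The members' median GC content was 51.0%, against 50.2% over all genes tested. In the 26 members of highest GC content 23, 25 and 22 fell (medians -0.73, -0.68 and -0.66), whereas in the 26 of lowest GC content 12, 4 and 9 fell (medians -0.22, -0.13 and -0.22). Whatever their GC content, 24%, 21.2% and 22.1% of all genes were called lower. Shares for all genes of like GC content are not given here, so these counts have no matched yardstick. Within the DMSO group the difference of replicate 1 minus replicate 2 had a rho of -0.56 with GC content, and within the ICG-001, CWP232228 and YB-0158 groups 0.71, 0.52 and 0.51. Fold change and GC content therefore moved together in these libraries, also between replicates, and the part of GC content in the fold changes of single genes was not tested.

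With offsets for GC content and length fitted per library, the group as a whole kept its direction. The offset fit called 57 members lower and 3 higher for ICG-001, 57 and 0 for CWP232228 and 52 and 1 for YB-0158. Over all genes the same fit called 27.4% lower and 19.7% higher for ICG-001, 19.5% and 10.5% for CWP232228, and 26.1% and 18.5% for YB-0158. The members' medians were -0.38, -0.32 and -0.36, against -0.05 over all genes in each of the 3. The same fit left rho with GC content at 0.20, 0.23 and 0.14, and the 26 members of lowest GC content had medians of -0.44, -0.35 and -0.38 and the 26 of highest GC content had -0.35, -0.27 and -0.34. Single genes of high GC content changed most. MRPL12 (64.6% GC) then had -0.43, -0.29 and -0.46, MRPL55 (64.7%) had -0.40, -0.34 and -0.45 and MRPS26 (63.4%) had -0.48, -0.25 and -0.38. MRPL11 (53.9%) and MRPL16 (50.7%) kept most of their size, at -0.90, -0.51 and -0.78 for MRPL11 and -0.80, -0.42 and -0.89 for MRPL16. MRPL54 no longer passed for YB-0158 (-0.23, adjusted p = 0.064). MRPL41, the member of highest GC content at 71.9%, had 41.7 and 34.8 CPM in ICG-001 libraries, 29.8 and 31.0 CPM in CWP232228 libraries, 41.1 and 40.8 CPM in YB-0158 libraries and 46.8 and 51.9 CPM in DMSO libraries. Its log2 fold changes were -0.37, -0.70 and -0.27 (adjusted p = 0.018, 0.0021 and 0.063) and turned to 0.23, -0.08 and 0.23 with the offsets (adjusted p = 0.0089, 0.34 and 0.0089). Its ICG-001 call was also lost without DMSO replicate 2 or ICG-001 replicate 2. The other members called higher with the offsets were MRPL34 (0.19) and MRPS23 (0.27), for ICG-001.

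**Figure D4:**
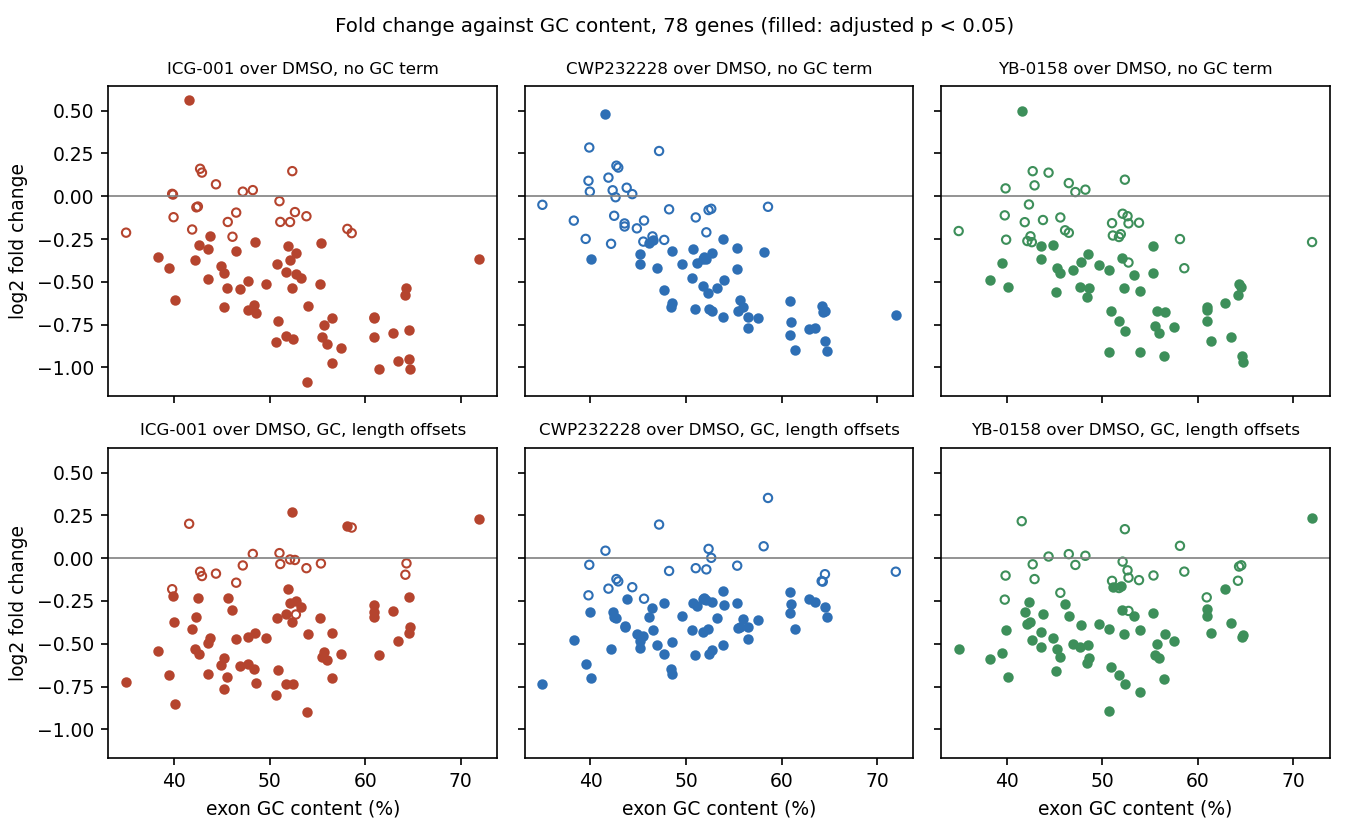
Log2 fold change over DMSO (y) against exon GC content in percent (x) for the 78 genes, without a GC term (upper row) and with GC content and length offsets (lower row), for ICG-001, CWP232228 and YB-0158 from left to right; filled points have an adjusted p under 0.05. The slope in the upper row, with rho of -0.57, -0.77 and -0.57, is near flat below, while most points stay under 0.

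Between compounds few members differed, and doses differed in each of these comparisons. For CWP232228 against ICG-001, 0 members were lower and 4 were higher, where 3.17% of all genes were called lower and 3.65% higher. The 4 were MRPL11 (0.38 on the log2 scale, 95% interval 0.17 to 0.59, adjusted p = 0.047), MRPL16 (0.37, 0.16 to 0.58, adjusted p = 0.047), MRPS27 (0.32, 0.17 to 0.48, adjusted p = 0.028) and MRPL9 (0.29, 0.13 to 0.46, adjusted p = 0.047), the last named after its value was seen. Leaving out either library of either compound ended all 4 calls, and a fit with the replicate number as a block called 0 members higher. At an unadjusted p under 0.05, 3 members were lower and 13 higher, where 10.8% and 11.6% of all genes were, and DESeq2 called 0 lower and 4 higher. With the 4 libraries of these compounds alone, 3 members were lower and 9 higher.

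For YB-0158 against CWP232228, MRPL16 was lower (-0.43, -0.64 to -0.23, adjusted p = 0.025) and MRPL41 was higher (0.43, 0.19 to 0.67, adjusted p = 0.042), where 4.21% of all genes were called lower and 3.56% higher. Both calls were lost when any library of either compound was left out, and the replicate block ended the call of MRPL41 (adjusted p = 0.084). At an unadjusted p under 0.05, 9 members were lower and 3 higher, where 12.3% and 11.7% of all genes were. For YB-0158 against ICG-001, edgeR called 0 members either way, where 0% of all genes were called lower and 0.00608% higher. At an unadjusted p under 0.05, 0 members were lower and 2 higher, where 2.64% and 2.94% of all genes were, and DESeq2 called 0. Over the 78 members the 95% intervals of that difference lay between -0.64 and 0.46 on the log2 scale, which does not show that these compounds act alike.

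Transcript usage, the share of a gene's reads given to each of its transcripts, could be tested in 67 members. It changed in 3 after ICG-001 (MRPS2, MRPS22 and MRPL42), in 3 after CWP232228 (MRPS2, MRPS22 and MRPL42) and in 2 after YB-0158 (MRPS2 and MRPS22), by edgeR's diffSpliceDGE at an adjusted Simes p under 0.05. Over 11611 genes tested, 3.88%, 3.58% and 3.2% were called in these comparisons, so the members' share was close to that of all genes. In MRPS22, a mitochondrial protein of the small subunit, the coding transcript ENST00000465373 took 19.1% and 15.98% of reads in ICG-001 libraries, 21.1% and 18.0% in CWP232228 libraries and 18.6% and 18.3% in YB-0158 libraries, and was listed at 0 in both DMSO libraries (adjusted p = 0.0060, 0.0047 and 0.0059). In MRPS2 the coding transcript ENST00000453385 took 22.03% and 19.0% in ICG-001 libraries, 0 and 12.4% in CWP232228 libraries and 23.6% and 15.2% in YB-0158 libraries, and was listed at 0 in both DMSO libraries (adjusted p = 0.0064, 0.024 and 0.0072). In CWP232228 replicate 1, where that transcript was at 0, the noncoding ENST00000472946 took 32.7% and was at 0 in the 7 other libraries. Such zeros can be failed estimates of the model that divides reads among similar transcripts. The counts also moved with single libraries: without either DMSO library 1 member was called for ICG-001 and for CWP232228, and without DMSO replicate 2 none was called for YB-0158.

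Some members share reads or bases with other genes. MRPS31 has the pseudogenes MRPS31P5 and MRPS31P4, whose estimated reads were 38.2% and 19.0% of its own, and its falls after ICG-001 and YB-0158 (-0.42 and -0.39) are uncertain for that reason. Exons of other genes cover 45.2% of the exon bases of MRPL53 (CCDC142), 32.7% of MRPL43 (SEMA4G), 31.3% of MRPL51 (NCAPD2), 23.2% of MRPS24 (a readthrough transcript with URGCP) and 22.2% of MRPS25 (NR2C2). Among the members named above for large falls, the overlap was 16.3% in MRPS12 (SARS2), 14.7% in MRPL2 (KLC4), 7.3% in MRPL28 (PGAP6) and 4.7% in MRPL11 (PELI3). In MRPS7 it was 6.4% (GGA3) and 4.4% (MIF4GD), and in MRPL37 5.5% (CYB5RL) and 1.3% (SSBP3).

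The authors' deposited table gives 49 members lower and 2 higher for ICG-001 (MRPS10 and MRPS30), 46 lower and 1 higher for CWP232228 and 43 lower and 1 higher for YB-0158 at an adjusted p under 0.05. Over all genes with an adjusted p, the authors' deposited table has 18.1% lower and 17.8% higher for ICG-001, 15.1% and 15.3% for CWP232228, and 16.6% and 16.8% for YB-0158. Median log2 fold changes in the authors' deposited table were -0.39, -0.33 and -0.35. For MRPS18C the authors' deposited table has 0.25, 0.29 and 0.20, none past 0.05, and for MRPS27 it has -0.14, 0.20 and -0.05, likewise none past 0.05.

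Mitochondrial ribosomal proteins that carry other symbols gave a mixed picture. AURKAIP1, GADD45GIP1 and CHCHD1 fell after each compound, with log2 fold changes of -1.24, -1.06 and -1.05 for AURKAIP1, with log2 fold changes of -1.18, -1.01 and -0.998 for GADD45GIP1 and with log2 fold changes of -0.79, -0.55 and -0.81 for CHCHD1. DAP3, the small subunit's GTP-binding protein, had -0.06, -0.14 and -0.04 and did not pass, and PTCD3 had 0.03, 0.29 and -0.01 and rose after CWP232228 (adjusted p = 0.012). With the GC content and length offsets 4, 4 and 3 of these 5 genes fell and 0, 1 and 0 rose, so all 5 passed for CWP232228. Of 30 assembly factors of this ribosome, 12, 15 and 13 fell and 5, 3 and 3 rose after ICG-001, CWP232228 and YB-0158 (medians -0.19, -0.30 and -0.22). Over all genes 24%, 21.2% and 22.1% were called lower and 24.8%, 21.6% and 21.7% higher. With the offsets 12, 13 and 13 assembly factors fell and 2, 0 and 0 rose (medians -0.11, -0.19 and -0.19). Over all genes the offset fit called 27.4%, 19.5% and 26.1% lower and 19.7%, 10.5% and 18.5% higher. RCC1L, an assembly factor, fell with log2 fold changes of -0.85, -0.65 and -0.80. Of 16 mitochondrial translation factors, 5, 3 and 4 fell and 6, 4 and 5 rose (medians 0.03, 0.03 and -0.02). With the offsets 5, 4 and 5 of the 16 fell and 4, 2 and 4 rose (medians -0.16, -0.17 and -0.13). Without them TUFM, the elongation factor that delivers tRNA, fell with log2 fold changes of -0.88, -0.69 and -0.78. By contrast GFM1, the elongation factor for translocation, rose, with 0.78, 0.67 and 0.77. Of 20 genes for charging mitochondrial tRNAs, 8, 5 and 7 fell and 1, 2 and 2 rose (medians -0.15, -0.04 and -0.09), with SARS2 lower with log2 fold changes of -0.98, -0.66 and -0.78. With the offsets 11, 7 and 10 of the 20 fell and 0, 0 and 1 rose (medians -0.26, -0.18 and -0.22). SARS2 lies beside MRPS12, and its exons on the opposite strand cover 16.3% of the exon bases of MRPS12.

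All 13 mitochondrially encoded mRNAs were higher after each compound, with medians of 1.86, 1.68 and 1.58 on the log2 scale and with 13, 12 and 13 called under the GC content and length offsets. Of the 2 mitochondrial rRNAs, which form the ribosome with these proteins, MT-RNR2 had 0.64, 0.33 and 0.18 (adjusted p = 0.024, 0.18 and 0.45) and MT-RNR1 had -0.38, -0.60 and -0.42 (adjusted p = 0.16, 0.047 and 0.13). Neither rRNA passed in any of the 3 comparisons with the offsets. POLRMT, the mitochondrial RNA polymerase, fell with log2 fold changes of -0.76, -0.69 and -0.73. In its list of 24 genes for mitochondrial transcription and RNA processing 7, 5 and 6 fell and 4, 5 and 2 rose (medians 0.06, 0.07 and -0.02). The shares of all genes called were 24%, 21.2% and 22.1% lower and 24.8%, 21.6% and 21.7% higher. With the offsets 12, 10 and 11 of the 24 fell and 1, 1 and 1 rose (medians -0.22, -0.20 and -0.27). The offset shares of all genes were 27.4%, 19.5% and 26.1% lower and 19.7%, 10.5% and 18.5% higher. Of 9 regulators of nuclear genes for mitochondria 1, 2 and 1 fell and 2, 2 and 3 rose (medians 0.0049, 0.076 and 0.047). GABPB1, the partner of the ETS factor GABPA, was higher by 0.49, 0.48 and 0.48 (adjusted p = 0.0043, 0.0071 and 0.0053). With the GC content and length offsets 3, 3 and 3 of the 9 fell and 3, 0 and 2 rose, so GABPB1 was not called higher for CWP232228 there. MYC, which activates many genes of ribosome production, fell after ICG-001 (-0.43, adjusted p = 0.0052) and YB-0158 (-0.32, adjusted p = 0.021). Its value after CWP232228 is not given here.

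Nuclear genes for other large assemblies fell in similar or larger shares. Of 79 cytosolic ribosomal protein genes 68, 68 and 58 fell (medians -0.59, -0.53 and -0.44), and of 75 nuclear genes for respiratory chain and ATP synthase subunits 56, 51 and 50 fell (medians -0.45, -0.42 and -0.39), after ICG-001, CWP232228 and YB-0158. With the GC content and length offsets the medians were -0.39, -0.37 and -0.35 for cytosolic ribosomal proteins and -0.34, -0.30 and -0.33 for respiratory subunits. Of 21 genes for mitochondrial protein import 6, 8 and 7 fell and 4, 1 and 2 rose (medians -0.17, -0.11 and -0.18), led by TIMM13, a carrier chaperone of the space between the membranes, which fell with log2 fold changes of -1.46, -1.17 and -1.33. Of 19 mitochondrial chaperones and proteases 7, 6 and 8 fell and 5, 4 and 6 rose (medians -0.02, -0.01 and -0.04), with HSPA9, the matrix Hsp70, higher by 1.01, 0.56 and 1.07. The shares of all genes called were 24%, 21.2% and 22.1% lower and 24.8%, 21.6% and 21.7% higher. With the offsets 6, 6 and 6 import genes fell and 3, 2 and 3 rose. Among chaperones and proteases 7, 7 and 6 then fell and 3, 3 and 3 rose. The offset shares of all genes were 27.4%, 19.5% and 26.1% lower and 19.7%, 10.5% and 18.5% higher.

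**Figure D5:**
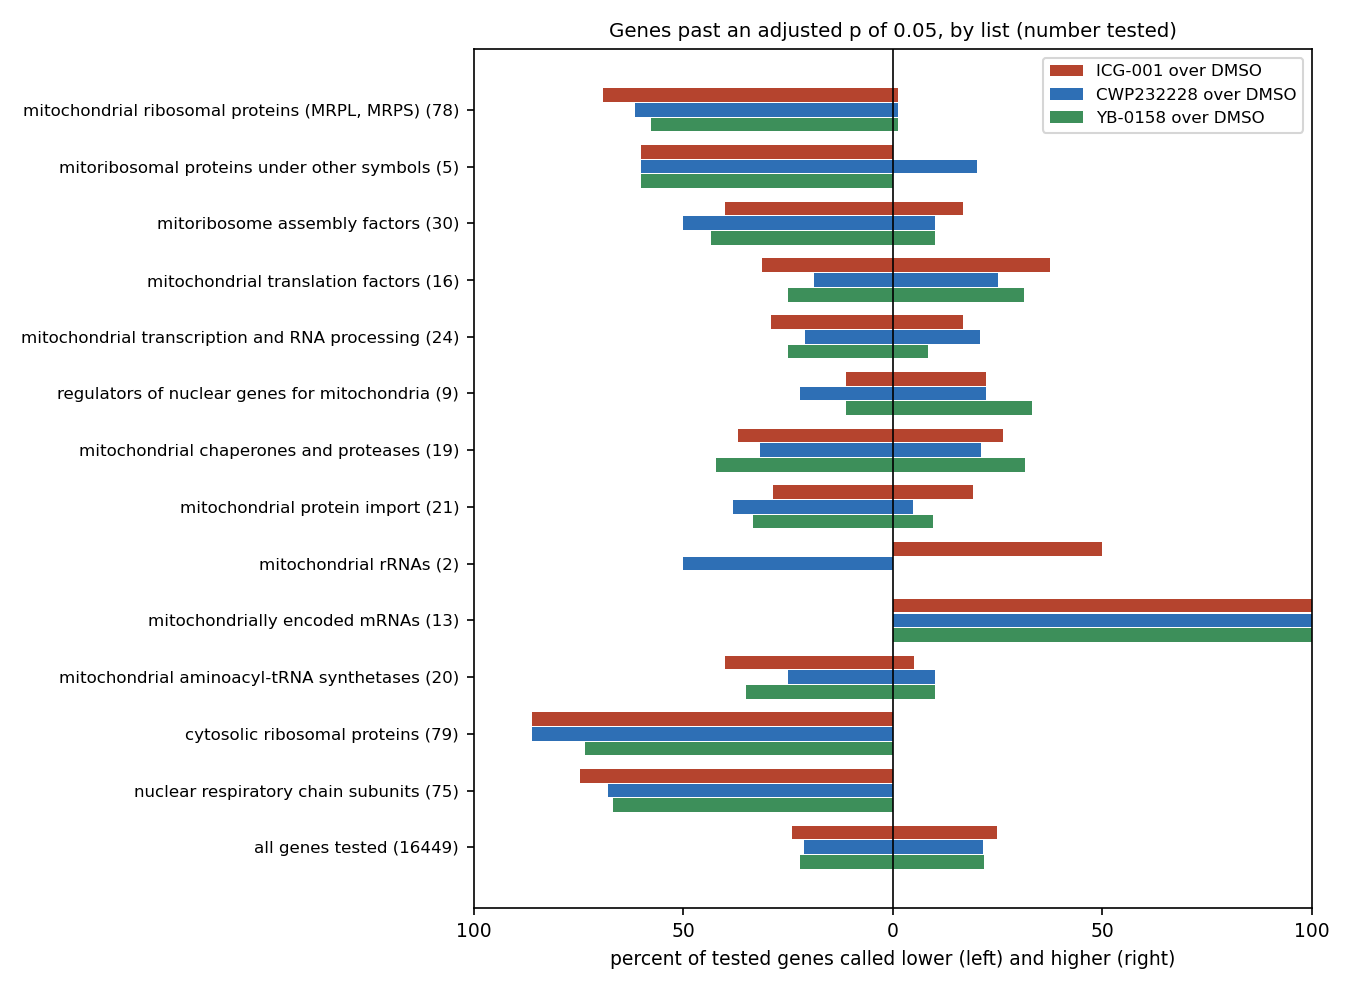
Percent of genes called lower (bars to the left) and higher (bars to the right) for each compound over DMSO, in the 78 members, in 12 other gene lists and over all 16449 genes tested. Bars to the left exceed those of all genes, for each compound, in the members, the cytosolic ribosomal proteins and the respiratory subunits. They also do so in mitoribosomal proteins under other symbols, assembly factors, aminoacyl-tRNA synthetases, protein import, and chaperones and proteases. Some of these excesses are small: 5 of 20 synthetases for CWP232228 against 21.2% of all genes, and 6 of 21 import genes for ICG-001 against 24%. Chaperones and proteases also exceed all genes to the right for ICG-001 (5 of 19 against 24.8%) and YB-0158 (6 of 19 against 21.7%). The 13 mitochondrially encoded mRNAs lie wholly to the right.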

How the data were processed

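RNA of HT29 cells was made into libraries with a TruSeq RNA kit that does not mark strand and sequenced, per the labels' protocols. Salmon 1.3.0, fastp and DESeq2 are listed, with the GRCh38 build, by the submitters' processing notes, which give no role or order. The authors deposited estimated counts of reads and TPM per transcript for each library. The authors also deposited, per compound, a gene table with FPKM, a signal column of mean normalized counts, log2 fold changes with their errors, and p-values with adjusted p-values. How these were made is not given in the sources used here.

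Transcripts were matched to GENCODE 29 on GRCh38 (204677 of 228754, 89.5%), and estimated counts were summed per gene and rounded. TPM was summed. CPM and fold changes came from edgeR 4.0.16 in R 4.3.3 with TMM scaling, filterByExpr and the robust quasi-likelihood test, in 1 model of all 8 libraries with 4 residual degrees of freedom, which took in 16449 genes. Calls used a Benjamini-Hochberg adjusted p under 0.05 over all genes, which is the adjusted p printed for any gene. Transcript usage was tested with diffSpliceDGE. DESeq2 1.42.0, limma 3.58.1 on log2(FPKM + 0.1), other filters, offsets, blocks and left-out libraries were the alternatives. GC content and length offsets came from natural splines over genes, fitted per library. The steps were tested on simulated data. Depth was 29071547 to 58489118 reads per library, and more reads cannot replace the missing replicates.

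The members and lists were chosen with earlier results of these data known, and the grouping of members by role was written after their values were seen. Named genes are the 6 largest called falls and rises per compound, those called against the majority, the highest and lowest by TPM, the 3 largest differences each way between compounds, a fixed set chosen for role, and of each list the 3 genes of smallest p. MRPS7, MRPS11 and MRPL9 and members named beside a count or overlap were added after their values were seen. Replicate numbers did not pair the libraries by the rule used, since not every pair of groups had a correlation of deviations over 0.1. Promoter sequences are RefSeq's, from GRCh38.p14, whereas gene positions are GENCODE's. Protein sequences were not used here.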

Additional observations from a re-analysis of the deposited data

How the results depend on the processing

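Of 65 calls of named genes, 36 were never lost or reversed under the alternatives run, and 3 results reversed in sign. With GC content and length offsets MRPL41 after ICG-001 was 0.23, and 0.23 again with the replicate block added. MRPS18C after ICG-001 was 0.38 with effective length offsets and 0.33 with limma on FPKM, and after YB-0158 it was 0.32 and 0.25. Members called lower against DMSO stayed within 1.5 times of 54, 48 and 45 in every setting except CWP232228 with a library left out, which gave 29 to 55. With the replicate block they numbered 51, 44 and 45, and with limma on FPKM 48, 39 and 40. Members called higher, 1 for each compound, were 3 for ICG-001 with GC offsets, 3 with block and GC offsets, and 1 to 2 with a library left out. For CWP232228 they were 3 without a filter, 2 with a filter of 1 CPM, 0 with GC offsets, 0 with block and GC offsets, 3 with the DMSO replicate numbers crossed (an alternative chosen after seeing the data) and 0 to 3 with a library left out. For YB-0158 they were 2 with block and GC offsets and 0 to 1 with a library left out. For CWP232228 against ICG-001, members lower (0) became 1 without a filter, 2 with GC offsets, 3 with block and GC offsets and 3 with 4 libraries alone, and members higher (4) became 0 with effective lengths, 8 with GC offsets, 0 with the replicate block, 7 with block and GC offsets, 9 with 4 libraries alone, 0 with limma on FPKM and 0 to 0 with a library left out. For YB-0158 against CWP232228, members lower (1) became 0 with effective lengths, 5 with GC offsets, 5 with block and GC offsets, 5 with 4 libraries alone, 0 with limma on FPKM and 0 to 0 with a library left out. Members higher (1) became 2 with DESeq2, 2 without a filter, 0 with effective lengths, 2 with GC offsets, 0 with the replicate block, 2 with block and GC offsets, 2 with 4 libraries alone, 0 with limma on FPKM and 0 to 0 with a library left out. Members with changed transcript usage were 1 to 1 for ICG-001, 1 to 3 for CWP232228 and 0 to 1 for YB-0158 with a library left out, and 1 for YB-0158 with a filter of 1 CPM. The summed level differed by -24.7%, -22.3% and -23.6% with the deposited FPKM. The cause was not tested for any of these. Correlations of replicate deviations between same-numbered libraries were -0.21, -0.26 and -0.19 for ICG-001, CWP232228 and YB-0158 with DMSO, and among the compounds 0.20 for CWP232228 with ICG-001, 0.51 for YB-0158 with ICG-001 and 0.12 for YB-0158 with CWP232228.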
